A study of Rattus norvegicus with 12 samples.

Results

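The 10 genes described here encode amino acid transporters of the kidney tubule and the subunits they assemble with. They are Slc7a12, Slc7a13, Slc7a7, Slc7a8, Slc7a9, Slc3a1, Slc3a2, Slc1a4, Slc6a18 and Slc6a19. They were taken by symbol from the 18166 genes of the array, each was represented by 1 probeset that carries this symbol alone, and all 10 were measured. At the peak of L-NAME nephropathy, Slc7a12 and Slc7a13 fell 6.69-fold and 4.98-fold. Slc3a1 and Slc6a18 fell by less, and no longer passed the test in 5 of 6 and 4 of 6 fits that left out 1 array. The remaining 6 genes did not pass the test, which 9.4% of all genes passed. One week after L-NAME was stopped, Slc7a12 was still lower than in control kidneys and Slc1a4 had fallen 2.07-fold. No transporter gene differed from the control group by the test after 5 weeks, when 0.0% of all genes did.

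Amino acids filtered by the glomerulus are recovered almost entirely in the proximal tubule. Carriers in the apical brush border take them up from the urine, mostly with sodium or in exchange for other amino acids, and a second set of carriers in the basolateral membrane returns them to the blood. Many transporters of the SLC7 family, though not its cationic carriers such as Slc7a1, are light chains that need a heavy chain to reach the membrane: rBAT, encoded by Slc3a1, on the apical side, and the CD98 heavy chain, encoded by Slc3a2, on the basolateral side. Slc6a18 and Slc6a19, of the SLC6 family, do without a heavy chain but need collectrin (Cltrn) in the kidney. Early and late segments of the tubule carry different members, with Slc6a19 mainly in the early part and Slc6a18 and Slc7a13 in the later parts.

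Kidneys came from male Sprague-Dawley rats of 250 g at the start, 3 animals in each of 4 groups, with a separate array for each animal. L-NAME, an inhibitor of nitric oxide synthesis that causes hypertension, was dosed at 15 mg/kg daily through drinking water that also held NaCl at 6 g/L, until the urinary protein excretion ratio (UPER) exceeded 1 g/mmol creatinine. W0 rats were killed at that point, W1 rats 1 week and W5 rats 5 weeks after L-NAME was withdrawn, and CTL rats of the same age received no L-NAME. The paper gives the time on L-NAME as a range of weeks, so that rats differed in exposure. Whether CTL rats drank NaCl, the age in weeks and the exposure of each rat are not given in the sources used here. Rats of all 3 L-NAME groups had passed the UPER threshold, and these groups share 1 CTL group. RNA came from one piece of each kidney, so that cortex and medulla are mixed and the place of a transcript within the tubule was not measured.

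Values are log2 RMA levels, the unit in which the arrays were deposited, and a change is a difference between group means on this scale. A gene was called changed at a limma adjusted p under 0.05 over all genes, with all 12 arrays in 1 fit. Array medians lay between 5.75 and 5.92, and arrays correlated at 0.982 to 0.993 within groups. Markers of the nephron were present: Lrp2 (megalin of the proximal tubule) had levels of 11.05 to 11.22 in CTL, Umod (uromodulin of the thick limb) 11.67 to 11.71 and Nphs1 (nephrin of the podocyte) 6.59 to 6.76. Havcr1, the tubular injury marker KIM-1, rose 36.1-fold at W0 and 11.6-fold at W1 against CTL (adjusted p = 5.38e-08 and 8.43e-06).

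The promoter sequences of 4 of the 5 transporter genes called in any comparison with CTL are shown because these are the genes whose transcripts fell. Each is the RefSeq window on GRCr8 from 250 bases before to 50 bases after a transcript start, written 5′ to 3′ on the strand of the gene. Capitals mark a motif found by search on both strands.
Slc7a12 (chr2:88868054-88868353, - strand): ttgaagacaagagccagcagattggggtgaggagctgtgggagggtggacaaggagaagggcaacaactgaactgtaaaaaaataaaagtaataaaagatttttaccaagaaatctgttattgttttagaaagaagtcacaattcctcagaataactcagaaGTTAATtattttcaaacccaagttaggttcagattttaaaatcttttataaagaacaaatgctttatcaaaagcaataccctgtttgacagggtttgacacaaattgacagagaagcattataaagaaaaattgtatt
Slc6a18 (chr1:31436403-31436702, + strand): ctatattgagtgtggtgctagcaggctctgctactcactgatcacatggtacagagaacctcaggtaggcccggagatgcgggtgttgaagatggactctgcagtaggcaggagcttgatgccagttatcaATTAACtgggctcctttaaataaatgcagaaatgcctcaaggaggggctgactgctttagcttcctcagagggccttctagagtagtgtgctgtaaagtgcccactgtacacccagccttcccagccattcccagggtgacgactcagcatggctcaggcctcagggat
Slc3a1 (chr6:15394700-15394999, - strand): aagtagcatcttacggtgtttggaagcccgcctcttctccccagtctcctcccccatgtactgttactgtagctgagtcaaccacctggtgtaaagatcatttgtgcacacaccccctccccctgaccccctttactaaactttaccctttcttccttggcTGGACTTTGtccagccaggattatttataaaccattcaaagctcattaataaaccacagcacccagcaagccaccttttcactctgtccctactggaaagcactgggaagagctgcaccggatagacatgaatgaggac
Slc1a4 (chr14:98761513-98761812, - strand): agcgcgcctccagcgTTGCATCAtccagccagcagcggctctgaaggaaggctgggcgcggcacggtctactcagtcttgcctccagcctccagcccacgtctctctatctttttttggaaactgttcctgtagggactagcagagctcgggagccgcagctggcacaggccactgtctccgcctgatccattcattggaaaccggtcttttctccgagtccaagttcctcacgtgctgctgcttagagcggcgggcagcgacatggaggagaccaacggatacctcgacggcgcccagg
The fifth gene, Slc7a13, had no window in the table used. Capitals in Slc7a12 and Slc6a18 are the short motif of HNF1, the transcription factor of proximal tubule and liver genes (GTTAAT, on the opposite strand in Slc6a18), at 83 and 114 bases before the start. Those in Slc3a1 are an HNF4 motif (CAAAGTCCA, opposite strand, 81 bases before the start), and those in Slc1a4 an ATF4 motif (TGATGCAA, opposite strand, 228 bases before the start). ATF4 is the factor of the amino acid deprivation response. The short HNF1 motif was in 3 of 10 windows of the transporter genes (Slc6a19, Slc6a18 and Slc7a12) and in 7.45% of all 33469 windows. The HNF4 motif was in 0.391% and the ATF4 motif in 0.795% of all windows, and in 1 transporter window each. The longer, palindromic HNF1 motif, which is the short motif followed after any single base by its own reverse complement, was in 0 of the 10 transporter windows and in 0.00299% of all windows. These letters were chosen with the windows known, and a match is a description of the sequence only. Hnf4a itself, which encodes a proximal tubule transcription factor, fell by 0.65 at W0 (SE 0.172, adjusted p = 0.0284).

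Slc7a12 and Slc7a13 showed the widest changes among the transporter genes. Slc7a12 encodes Asc-2, a carrier of small neutral amino acids characterized in mouse, whose heavy chain has not been established. Its gene lies at chr2:88800954-88868117 of GRCr8. In CTL its level was 10.86, 10.52 and 10.41 in replicates 1 to 3. At W0 the level was 8.69, 8.22 and 6.65, all below the lowest control kidney. At W1 it was 9.03, 7.27 and 8.22, again without overlap with CTL, and at W5 it was 10.43, 10.42 and 9.51, which overlapped CTL. The W0 kidneys thus lay well below both CTL and W5, with W0 replicate 3 the lowest of all 12.

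The fall of Slc7a12 at W0 was 2.74 on the log2 scale (SE 0.475, 95% interval -3.76 to -1.72, adjusted p = 0.00251). At W1 the gene was 5.37-fold lower than in CTL (log2 change -2.42, SE 0.475, adjusted p = 0.0159), and the difference between W1 and W0 was 0.32 (95% interval -0.70 to 1.34). At W5 the gene was 4.81-fold higher than at W0 (log2 change 2.27, adjusted p = 0.0135). Against CTL the W5 mean differed by -0.48 (95% interval -1.50 to 0.54, adjusted p = 0.853). Leaving out single arrays kept the W0 call in 6 of 6 fits, with changes of -3.16 (without W0 replicate 1) to -2.14 (without W0 replicate 3). The W1 call was lost without CTL replicate 1 (adjusted p = 0.0685), CTL replicate 2 (0.0525) or W1 replicate 2 (0.0785), and the call of W5 against W0 without W5 replicate 1 (0.0547) or W5 replicate 2 (0.0683).

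Slc7a13 encodes AGT1, an apical carrier of aspartate, glutamate and cystine in the late proximal tubule that pairs with rBAT. The gene is at chr5:38074171-38096856. CTL kidneys were close together, at 11.54, 11.44 and 11.46. At W0 the levels were 10.39, 9.02 and 8.09, the widest spread of this gene in any group (SD 1.16, n = 3, against 0.054 in CTL). At W1 they were 10.29, 9.77 and 10.31, and at W5 11.30, 11.43 and 11.31. All W0 and W1 kidneys lay below all CTL kidneys, and the W5 kidneys lay just below the CTL range.

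Slc7a13 fell by 2.32 at W0 (SE 0.384, 95% interval -3.14 to -1.49, adjusted p = 0.00188) and was 4.55-fold higher at W5 than at W0 (log2 change 2.19, adjusted p = 0.00477). Its change at W1 was -1.36 (SE 0.384) and missed the threshold (adjusted p = 0.0787). When only CTL and W1 were fitted, this difference passed (adjusted p = 0.0032), as it did without the replicates 1 of W0 and W1 (0.00915). At W5 the difference from CTL was -0.13 (95% interval -0.96 to 0.69). Single arrays moved the W0 change between -2.93 (without W0 replicate 1) and -1.78 (without W0 replicate 3), and both calls held in 6 of 6 fits.

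Measured in whole tissue, a lower level can come from fewer tubule cells or from less transcript in each cell, and these cannot be told apart here. At W0, 9 of 14 measured proximal tubule markers were called lower, against 4.41% of all genes, and none was called higher. The median change of the markers was -0.75, against -0.006 over all genes. Pck1 (10.72 to 10.98, against 10.24 to 10.61 in CTL) and Cubn (10.41 to 10.65, against 10.25 to 10.38) lay above CTL without overlap. The summed signal of the 14 markers, added on the linear scale, was 19300 to 20700 in CTL, 12200 to 14400 at W0, 15000 to 18200 at W1 and 16300 to 19900 at W5. The summed signal of the 10 transporter genes was 11600 to 12900 in CTL, 5330 to 8200 at W0, 7270 to 8710 at W1 and 10500 to 11900 at W5. Slc3a1, Slc7a13, Slc7a12 and Slc6a18, the genes called lower at W0, had the highest CTL levels and weigh most in this sum. The median change of the 10 genes at W0 was -0.56, against -0.75 for the markers. Of 8 macrophage markers 6 rose at W0 (median 1.05) and 7 at W1 (1.02), with a summed signal of 651 to 718 in CTL, 1060 to 1670 at W0, 1180 to 1610 at W1 and 708 to 814 at W5. The part of these shifts in the transporter changes was not tested.

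**Figure D1:**
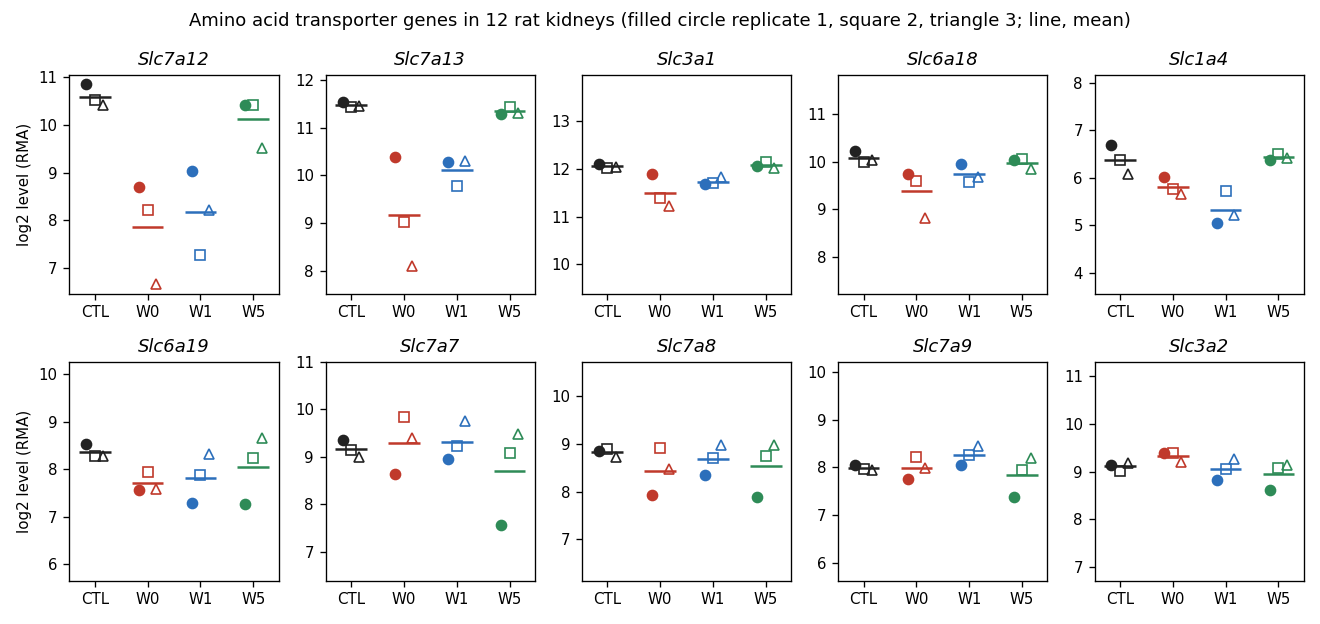
Log2 RMA level of each of the 10 transporter genes (vertical axis, the same span of 4.6 log2 units in every panel) in the 3 kidneys of CTL, W0, W1 and W5; lines are group means. Slc7a12 and Slc7a13 drop farthest at W0, and the filled circles of W5 (replicate 1) lie low for Slc7a7, Slc7a8 and Slc6a19.

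The apical cystine carrier is formed by Slc7a9, its light chain, and Slc3a1, its heavy chain rBAT. Mutations in either gene cause cystinuria in humans. Slc3a1, at chr6:15361037-15396695, had levels of 12.11, 12.02 and 12.04 in CTL. The W0 levels were 11.90, 11.40 and 11.22, and the W1 levels 11.68, 11.70 and 11.83. At W5 it was 12.07, 12.14 and 12.03. Both W0 and W1 kidneys were below every CTL kidney, whereas W5 and CTL overlapped.

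Slc3a1 fell 1.46-fold at W0 (log2 change -0.55, SE 0.147, adjusted p = 0.0308) and was 1.49-fold higher at W5 than at W0 (0.57, SE 0.147, adjusted p = 0.0375). At W1 its change was -0.32 (adjusted p = 0.306). The W0 call was lost without CTL replicate 1, 2 or 3 (adjusted p = 0.0979, 0.0724 and 0.0744), without W0 replicate 2 (0.0922) or W0 replicate 3 (0.131), and when only the 2 groups were fitted (0.103). The W5 call against W0 was lost without W0 replicate 2 or 3 (0.114 and 0.146), without W5 replicate 1, 2 or 3 (0.0939, 0.145 and 0.0734), and with only the 2 groups (0.13).

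Slc7a9, at chr1:97246253-97269546, had levels of 8.05, 7.96 and 7.94 in CTL and 7.76, 8.22 and 7.98 at W0. At W1 it was 8.05, 8.26 and 8.46, and at W5 7.39, 7.95 and 8.19. W0 and CTL overlapped, and their difference was 0.01 (SE 0.186, 95% interval -0.39 to 0.40, adjusted p = 0.991). No comparison of Slc7a9 passed the threshold. Within each kidney, Slc7a9 minus Slc3a1 had a mean of -4.07 (SD 0.0228, n = 3) in CTL and -3.52 (SD 0.534, n = 3) at W0, a shift of 0.55 that was not significant (exact permutation test, two-sided, p = 0.4, adjusted over 6 pairs 0.6). Slc7a13 minus Slc3a1, the other pair on this heavy chain, shifted by -1.77, with all W0 kidneys (-3.14 to -1.51) below all CTL kidneys (-0.58 to -0.57). Its exact p was 0.1, the smallest that 3 against 3 can give (adjusted 0.3).

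Slc6a18 and Slc6a19 are neighbours on chromosome 1, at chr1:31436577-31450478 and chr1:31414744-31434932, with 1644 bases between them. Slc6a19 encodes the main apical carrier of neutral amino acids, mutated in human Hartnup disorder, and Slc6a18 a related carrier with a preference for glycine and alanine described in mouse. Slc6a18 was at 10.23, 9.99 and 10.03 in CTL, at 9.74, 9.60 and 8.83 at W0, at 9.96, 9.58 and 9.68 at W1 and at 10.04, 10.06 and 9.86 at W5. W0 and W1 kidneys were below every CTL kidney, and those of W5 overlapped with CTL. The gene fell 1.62-fold at W0 (log2 change -0.70, SE 0.196, adjusted p = 0.0389). Without W0 replicate 3 the change was -0.42 (adjusted p = 0.12). The call was also lost without CTL replicate 1, 2 or 3 (adjusted p = 0.131, 0.0754 and 0.0827), after repeated quantile normalization (0.0606) and with only the 2 groups fitted (0.108).

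Slc6a19 was at 8.53, 8.28 and 8.27 in CTL, at 7.57, 7.95 and 7.58 at W0, at 7.29, 7.87 and 8.31 at W1 and at 7.27, 8.23 and 8.65 at W5. All W0 kidneys were below all CTL kidneys, while W1 and W5 each spread over more than 1 log2 unit and overlapped with CTL. The change at W0 was -0.66 (SE 0.299, 95% interval -1.30 to -0.02) with an adjusted p of 0.207. Fitted with CTL and W0 alone, it passed (adjusted p = 0.0307). At W1 and W5 the changes were -0.54 and -0.31 (adjusted p = 0.42 and 0.847).

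Collectrin (Cltrn), the accessory protein of both SLC6 carriers, was at 11.11, 11.34 and 11.22 in CTL and at 10.81, 10.89 and 10.64 at W0, without overlap. Its change of -0.44 (SE 0.133) missed the threshold at an adjusted p of 0.054, and passed it after centring of the arrays, with a trended prior or without low genes. Relative to Cltrn in the same kidney, Slc6a19 shifted by -0.22 (exact p = 0.4) and Slc6a18 by -0.26 (exact p = 0.5) between CTL and W0, and both pairs overlapped between the groups (adjusted p = 0.6 for each).

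The basolateral carriers among the 10 genes did not fall at W0 by the test. Slc7a7 encodes the light chain that exports cationic amino acids, mutated in human lysinuric protein intolerance, and Slc7a8 encodes LAT2, an exchanger of neutral amino acids. Both lie on chromosome 15, at chr15:31792122-31852732 and chr15:32153016-32212715. Slc7a7 was at 9.35, 9.14 and 9.0 in CTL, at 8.63, 9.83 and 9.40 at W0, at 8.96, 9.22 and 9.75 at W1 and at 7.57, 9.07 and 9.48 at W5. The 4 groups overlapped, and W5 replicate 1 was the lowest by over 1 log2 unit. Changes against CTL were 0.12 (95% interval -0.74 to 0.98) at W0, 0.15 (-0.71 to 1.01) at W1 and -0.45 (-1.31 to 0.40) at W5, with adjusted p of 0.914, 0.905 and 0.823.

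Slc7a8 was at 8.86, 8.90 and 8.73 in CTL, at 7.93, 8.91 and 8.48 at W0, at 8.35, 8.70 and 8.98 at W1 and at 7.88, 8.74 and 8.97 at W5. In each L-NAME group replicate 1 was the lowest and another kidney reached the CTL range. Its changes were -0.39 (95% interval -0.98 to 0.20, adjusted p = 0.461) at W0, -0.15 at W1 and -0.30 at W5.

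Slc3a2, the heavy chain of both carriers, is made in most cell types. The gene lies at chr1:215033601-215048064. It was at 9.14, 9.01 and 9.17 in CTL, at 9.40, 9.38 and 9.21 at W0, at 8.82, 9.06 and 9.26 at W1 and at 8.62, 9.07 and 9.14 at W5. W0 was the single group whose kidneys were all above CTL, by a mean of 0.22 (SE 0.151, 95% interval -0.10 to 0.54, adjusted p = 0.448). Slc7a8 minus Slc3a2 shifted by -0.61 between CTL (-0.44 to -0.11) and W0 (-1.47 to -0.47) without overlap (exact p = 0.1, adjusted 0.3), and Slc7a7 minus Slc3a2 by -0.10 (exact p = 0.9).

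Slc1a4 had its lowest mean at W1 (5.33, against 5.80 at W0), but W1 and W0 did not differ by the test. It encodes ASCT1, a sodium-dependent exchanger of alanine, serine and cysteine that is found in many tissues, at chr14:98718646-98761672. Levels were 6.68, 6.37 and 6.09 in CTL and 6.01, 5.76 and 5.65 at W0. At W1 they were 5.05, 5.72 and 5.22, and at W5 6.38, 6.51 and 6.42. Both W0 and W1 were below CTL without overlap, and W5 lay within the CTL range. The lowest kidney was in W1, and W0 and W1 overlapped. For scale, array medians were 5.75 to 5.92.

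Slc1a4 fell by 1.05 at W1 (SE 0.18, 95% interval -1.44 to -0.67, adjusted p = 0.00817), a call that held in 6 of 6 fits without single arrays. At W0 its change was -0.58 (SE 0.18) with an adjusted p of 0.0622, which fell under the threshold when genes of low level were removed (0.0465) or CTL replicate 3 was left out (0.0395). W1 and W0 differed by -0.48 (95% interval -0.86 to -0.09, unadjusted p = 0.0195, adjusted p = 0.312). Between W1 and W5 the gene rose 2.16-fold (log2 change 1.11, SE 0.18, adjusted p = 0.0245). That call was lost without W1 replicate 1 (adjusted p = 0.121) or 3 (0.0513) and without W5 replicate 1, 2 or 3 (0.0824, 0.143 and 0.0664).

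**Figure D2:**
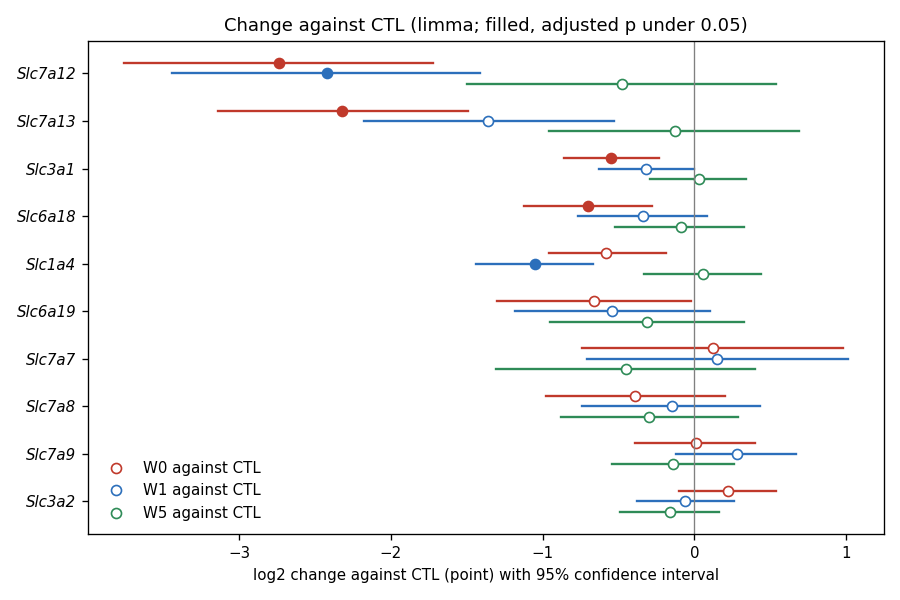
Log2 change of each transporter gene against CTL (points) with 95% confidence intervals from limma, for W0, W1 and W5; filled points have an adjusted p under 0.05. Filled points number 4 at W0 and 2 at W1, and every W5 interval includes 0.

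Set against all genes, 4 of the 10 transporter genes were called at W0, all lower, where 9.4% of the 18166 genes were called and 4.41% were called lower. Groups did not overlap for 7 of the 10, against 26.5% of all genes (6 lower, against 13.2%, and 1 higher, against 13.3%). The median change of the 10 genes was -0.56, and that of all genes -0.006. At W1, 2 of 10 were called, both lower, against 3.02% of all genes (0.787% lower), and 6 of 10 did not overlap with CTL, against 22.1% (5 lower, against 8.34%, and 1 higher, against 13.7%). The 6 without overlap at W1 included Slc7a9, which was higher by 0.28 (adjusted p = 0.527). At W5, limma called 0 of 10 against 0.0% of all genes, with 0 of 10 at an unadjusted p under 0.05 and 0 by the unmoderated test of the methods, and 1 of 10 (Slc7a13) did not overlap with CTL against 14.4% of all genes. In that unmoderated test of W5 against CTL, 1312 of the 18166 genes had an unadjusted p under 0.05.

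Between the L-NAME groups, W1 and W0 differed in 0 of 10 transporter genes by limma (0.528% of all genes were called), with 2 at an unadjusted p under 0.05 (Slc7a13 and Slc1a4) and 0 by the unmoderated test of the methods. In that unmoderated test of W1 against W0, 1262 of all genes had an unadjusted p under 0.05. Without W0 replicate 1, Slc7a13 was higher at W1 than at W0 by 1.57 (adjusted p = 0.00865). From W0 to W5, 3 of 10 rose (Slc7a12, Slc7a13 and Slc3a1), against 5.04% of all genes called and 1.88% called higher. From W1 to W5, 1 of 10 rose (Slc1a4), against 0.286% called and 0.022% called higher. Slc7a12 was higher at W5 than at W1 by 1.95 (adjusted p = 0.107) and Slc7a13 by 1.23 (0.208), each without overlap. The comparisons of W0, W1 and W5 with CTL share the control kidneys, and those of W5 with W0 and of W0 with CTL share the W0 kidneys.

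Tested over the 4 groups at once with the moderated F test, 3 of the 10 genes varied: Slc1a4 (adjusted p = 0.00433), Slc7a12 (0.00446) and Slc7a13 (0.00475). Over all genes 6.72% passed. For Slc3a1 the adjusted p was 0.0581 and for Slc6a18 0.121, and the other 5 were at 0.386 or above.

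Kidneys of one group did not all move alike. Slc7a7, Slc7a8, Slc7a9 and Slc6a19 each had their lowest level in replicate 1 of W0, of W1 and of W5, which held for 4 of the 10 genes and for 4.63% of all genes. This count and the next were made after the levels had been seen. In W5 replicate 1, Slc7a7 was 1.59 below the CTL mean, Slc6a19 1.09 and Slc7a8 0.95 (log2 differences of -1.59, -1.09 and -0.95). In the same kidney Slc7a12 differed from the CTL mean by -0.16, and Slc3a1 and Slc6a18 lay inside their CTL ranges. Among the W0 kidneys, Slc7a12, Slc7a13, Slc3a1, Slc6a18, Slc1a4 and Slc3a2 were highest in replicate 1 and lowest in replicate 3, an order seen in 6 of the 10 genes and in 18.0% of all genes. No gene can enter both counts, since W0 replicate 1 is the lowest in the first and the highest in the second. Slc1a4 and Slc3a2 were also lowest in replicate 1 of W1 (5.05 and 8.82) and of W5 (6.38 and 8.62).

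Slc5a2, the sodium-glucose cotransporter of the early proximal tubule and one of the marker genes, differed from its CTL mean by -0.50, -0.98 and -1.75 in the replicates 1 of W0, W1 and W5. In the other kidneys of these groups it differed by -0.17 to 0.46. Slc5a2 was picked from its list after its values were seen. Slc34a1, a phosphate cotransporter of the same list, differed by -0.39, -0.0 and -0.15 in the replicates 1 of W0, W1 and W5. In W5 replicate 1 the markers of this list other than Slc5a2 lay between -0.97 (Slc22a8) and -0.10 (Lrp2, present along the whole proximal tubule). Over the 14 proximal tubule markers the mean difference in W5 replicate 1 was -0.46, against -0.03 and -0.07 in W5 replicates 2 and 3. Over the 8 thick limb and distal tubule markers it was 0.26, against 0.01 and 0.07, and over the 8 collecting duct markers 0.30, against -0.02 and 0.19. The part of the sampled region of the kidney in these levels was not tested. Without the replicates 1 of W0, W1 and W5, a setting chosen after seeing the data, W5 minus CTL became 0.11 for Slc7a7, 0.03 for Slc7a8, 0.09 for Slc7a9 and 0.08 for Slc6a19, and 5, 3 and 0 transporter genes were called at W0, W1 and W5.

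**Figure D3:**
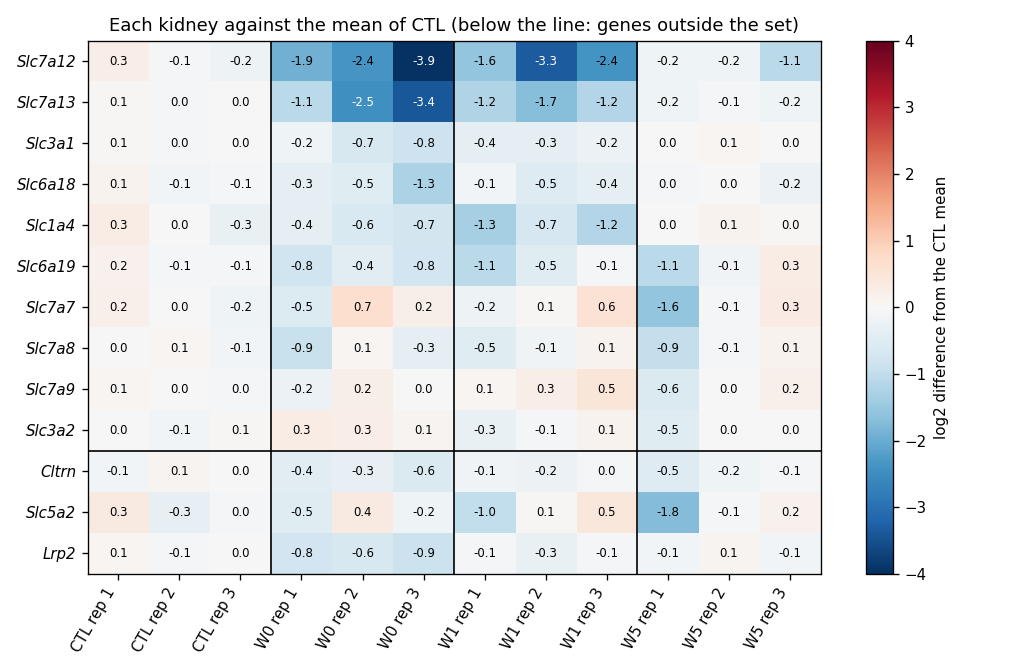
Log2 difference of each kidney (columns, 12 arrays) from the CTL mean of the gene (rows), coloured from -4 (blue) to 4 (red), for the 10 transporter genes and, below the line, Cltrn, Slc5a2 and Lrp2. Slc7a12 and Slc7a13 are low across W0 and W1, while Slc7a7, Slc6a19 and Slc5a2 are low in W5 replicate 1.

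Profiles like those of the most variable genes were found by the root mean square difference over the 12 arrays, after each gene was centred on its CTL mean. Closest to Slc7a12 were Cacng5 (a calcium channel subunit, difference 0.321), Gc (the vitamin D-binding protein, 0.485) and Ces1e (a carboxylesterase, 0.666). At W0 they changed by -2.33, -2.12 and -2.07. Closest to Slc7a13 were Hnmt (histamine N-methyltransferase, 0.195), Slco1a6 (an organic anion transporter, 0.202) and Rgn (regucalcin, 0.225), with W0 changes of -2.32, -1.95 and -2.46. The same measure, applied to the other genes after their values were seen, put Slc5a2 closest to Slc7a7 (0.296) and Slc34a3, a phosphate cotransporter of the proximal tubule, closest to Slc6a19 (0.126). Snap91 (0.304) and Gas5 (0.316) were almost as close to Slc7a7. Closest to Slc7a8 was Epb41l3 (0.133) and closest to Slc7a9 was Ctsh (0.11), which are not in the marker lists. For Slc1a4, Slc6a18, Slc3a1 and Slc3a2 the closest were Col4a4 (0.28), Pnpla3 (0.128), Cat (0.121) and Stk19 (0.0831).

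Of 34 other transporters of amino acids and peptides, 4 were called at W0, where 9.4% of all genes were called. Of 9 further carriers listed as apical 2 fell and none rose, with a median of -0.29. They were Slc15a2, the high-affinity peptide transporter (-1.42, adjusted p = 1.86e-05), and Slc6a13, a carrier of GABA and betaine (-1.02, adjusted p = 0.0132). Slc6a13 was placed in this list although it is known as a basolateral carrier of the proximal tubule. Of 25 further carriers listed as basolateral or general, which leave out Slc6a13, 2 rose and none fell, with a median of 0.13. These were Slc7a1, a carrier of cationic amino acids (0.63, adjusted p = 0.0398), and Slc7a6, a light chain related to Slc7a7 (0.61, adjusted p = 0.0104), and 1 to 5 of the 25 were called without single arrays. Genes of this list lay on both sides of CTL without a call. Slc16a10, Slc43a2, Slc38a10 and Slc7a14 were below CTL at W0 without overlap, and Slc7a5, Slc7a11, Slc38a2 and Slc38a5 above. The medians of these lists depend on which carriers were placed in each. At W1 Slc15a2 (-0.73) and Slc6a13 (-1.32) were still lower and Slc7a6 (0.59) was still higher than in CTL. At W5 none of these 34 genes was called against CTL, where 0.0% of all genes were called.

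Genes that act before and after transport also changed. Among 8 brush border peptidases, which release amino acids from filtered peptides, 4 fell at W0 and none rose (median -0.56): Mep1a by 1.53, Mme (neprilysin) by 1.17, Anpep (aminopeptidase N) by 1.1 and Xpnpep2 by 0.87. All 4 were higher at W5 than at W0. Among 21 enzymes of amino acid metabolism in the proximal tubule, 10 fell and none rose (median -0.44), led by Ddc (aromatic amino acid decarboxylase, -1.19), Gatm (the first enzyme of creatine synthesis, -1.09), Hgd (tyrosine breakdown, -1.04) and Haao (tryptophan breakdown, -0.98). Some enzymes had a higher mean at W0 without a call, most of all Gldc (7.16, against 6.44 in CTL) and Bhmt (8.68, against 8.39). At W1, 2 of the 21 enzymes were lower and 0 of the 8 peptidases were called. Of all genes, 9.4% were called at W0 (4.41% lower) and 3.02% at W1.

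Of 19 targets of the amino acid response, 4 rose and 1 fell at W0, with a median of 0.07. Atf3 (1.72), a stress transcription factor, Ddit4 (0.76), an inhibitor of mTORC1, Asns (0.68), asparagine synthetase, and Eif4ebp1 (0.60), a translation repressor, rose, while Psat1 (-0.73), an enzyme of serine synthesis, fell. Without single arrays, 1 to 3 of the 19 were called at W0, in place of 5, whichever of the 6 kidneys was left out. None of the 19 was called at W1 or W5 against CTL. Among the segment markers, Miox (-1.05), Khk (-0.96), Slc22a6 (-0.93) and Fbp1 (-0.80) led the 9 proximal tubule genes that fell. Of 8 markers of the last proximal segment, S3, 2 fell, Slc22a24 (-1.51) and Mpv17l (-1.11), and the other 6 were not called. Of 8 thick limb and distal tubule markers, Ptger3 rose (0.63) and Umod fell (-0.66), and of 8 collecting duct markers Aqp3 rose (0.63). No podocyte marker of 4 and no endothelial marker of 3 was called at W0, whereas 6 of 9 tubular injury markers rose (median 2.03).

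**Figure D4:**
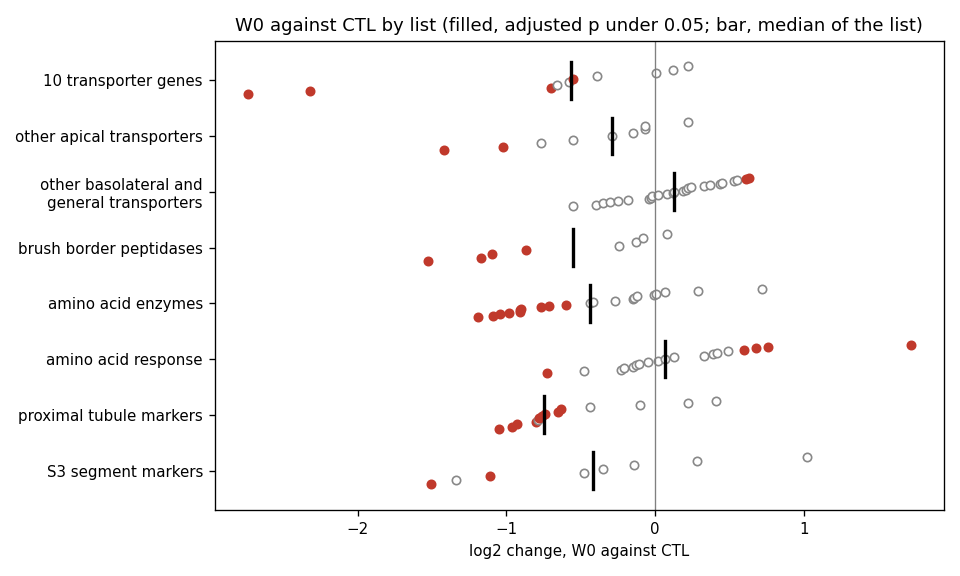
Log2 change from CTL to W0 of each gene (points) in the 10 transporter genes and 7 further lists, with filled points at an adjusted p under 0.05 and the median of each list as a bar. Transporters listed as apical (with the basolateral Slc6a13 among them), peptidases, enzymes and tubule markers lie mostly below 0. Those listed as basolateral and general lie around it.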

How the data were processed

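Total RNA from a piece of kidney of each of 12 rats was hybridized on Affymetrix Rat Gene arrays after linear amplification. The authors normalized the fluorescence with RMA, and the deposited values are log2 levels of 20944 probesets, from 1.52 to 12.88, used as they are. The software, scan dates and batches are not given in the sources used here. Groups and replicate numbers came from the sample labels. No depth applies to arrays, whose number (3 per group) limits the precision.

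Probesets with 1 symbol were kept (18510, with 575 of several symbols and 1859 of none left out), and the one with the highest mean over the 12 arrays represented a gene (290 genes had several), which gave 18166 genes. The comparisons between groups used limma (version 3.58.1, R 4.3.3; lmFit, contrasts, eBayes without trend, 13.84 total degrees of freedom, median SE 0.145), with p adjusted by Benjamini-Hochberg over all genes at a threshold of 0.05. The methods name Student's test, after an analysis of variance for more than 2 groups, for the study in general and state none for the arrays in particular. Pairs of genes were compared with exact permutation tests, adjusted over 6 pairs. The code was tested on simulated data. Tables and figures were made in Python (3.11.15) using pandas (2.3.3), numpy (2.4.6), matplotlib (3.10.9) and scipy (1.17.1).

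The transporter genes, the gene lists and the tests were chosen with earlier results of these data known. Named were all 10 transporter genes, Cltrn, Havcr1 and Lrp2. Up to 4 genes of a list by the size of their W0 change and the 3 closest profiles of the 2 most variable genes were also named. Nphs1, Hnf4a, Eif4ebp1, Slc5a2, Slc34a1, Slc22a8 and Slc34a3 were added after their values were seen. So were further genes of a list named without a call and the closest profiles of the other transporter genes. Of the listed genes 2 were found by a synonym and 16 were not analysed here. Gene positions and promoters are from RefSeq on GRCr8, in which 9 of the 10 genes had a promoter window. Alternatives were centring, repeated quantile normalization, eBayes with trend, fits of 2 groups, removal of low genes, the mean of a gene's probesets, a replicate block, Student's unmoderated test, and fits without single arrays or without the replicates 1.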

Additional observations from a re-analysis of the deposited data

How the results depend on the processing

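The number of transporter genes called was 3 to 5 at W0, 2 to 3 at W1 and 0 at W5 against CTL under every setting other than the methods' Student test and the fits without single arrays. With the methods' Student test after Benjamini-Hochberg adjustment it was 0 in the comparisons of W0 with CTL, W1 with CTL, W5 with W0 and W5 with W1 (34, 1, 0 and 0 of all genes), while 5, 4, 4 and 4 transporter genes had an unadjusted p under 0.05 in it. Of all 18166 genes, 3137, 2480, 2650 and 1780 had an unadjusted p under 0.05 in these comparisons. Without the replicates 1 of W0 and W1, 1 gene was called between W1 and W0 and 5 between W5 and W0. Between W5 and W1, 2 were called when only these groups were fitted, and 0 without the replicates 1 of W0, W1 and W5 (a setting chosen after seeing the data). Leaving out single arrays gave 2 to 4 calls for W0 against CTL, 1 to 2 for W1 against CTL, 0 to 1 for W1 against W0, 1 to 4 for W5 against W0 and 0 to 1 for W5 against W1, and the F test called 3 to 4. Over all genes, fits of only 2 groups called 19 in place of 96 for W1 against W0, 537 in place of 916 for W5 against W0 and 80 in place of 52 for W5 against W1. In that last comparison centring called 30, repeated quantile normalization 31, and removing low genes or eBayes with trend 82. Without the replicates 1 of W0, W1 and W5 this comparison called 11, and W1 against W0 called 51 (58 with W5 complete). Without single arrays, 1070 to 1498 genes were called for W0 against CTL in place of 1708, 165 to 466 for W1 against CTL in place of 548, 22 to 169 for W1 against W0, 407 to 852 for W5 against W0 and 3 to 64 for W5 against W1. Against CTL at W5, 1 gene was called with the trend or without low genes. Centring moved the share of higher calls from 73.9% to 55.1% for W1 against CTL and from 42.7% to 30.7% for W1 against W0. The cause of these shifts was not tested.

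Same-numbered kidneys of different groups had deviations that correlated at -0.036 to 0.172 (18 pairs), and those with different numbers at -0.214 to 0.19 (36 pairs). The replicates 1 of W0, W1 and W5 correlated at 0.102 to 0.164 (3 pairs). Among same-numbered pairs only replicates 2 of W0 and W1 were negative (-0.036), while different-numbered pairs took both signs. Since not every same-numbered pair was over 0.1, the numbers were not taken as pairs. A factor shared by kidneys of the same number was not tested. With the replicate block, 4, 2, 0, 0, 3 and 1 transporter genes were called for W0, W1 and W5 against CTL, W1 against W0, W5 against W0 and W5 against W1, as without it.

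Direction changed only for differences that were not called. After centring, Slc7a9 at W0 against CTL was -0.03 and Slc7a7 at W1 against W0 -0.03. After quantile normalization, Slc3a1 at W5 against CTL was -0.0 and Slc7a7 at W1 against W0 -0.01. Without the replicates 1 of W0 and W1, Slc7a8 and Slc3a2 at W1 against CTL were 0.01 and 0.05, Slc7a7 at W1 against W0 -0.13, Slc7a8 at W5 against W0 -0.16 and Slc6a19 at W5 against W1 -0.04. Without those of all 3 L-NAME groups, the first 3 values were the same, Slc7a7, Slc7a8, Slc7a9 and Slc6a19 at W5 against CTL were 0.11, 0.03, 0.09 and 0.08, and Slc7a8 at W5 against W1 was 0.02.

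Without single arrays, these differences took both signs. Against CTL at W0, Slc7a7 ranged from -0.15 to 0.45 and Slc7a9 from -0.11 to 0.12, and Slc7a7 minus Slc3a2 from -0.35 to 0.26. At W1, Slc7a7 ranged from -0.07 to 0.32, Slc7a8 from -0.30 to 0.01 and Slc3a2 from -0.17 to 0.05. At W5, Slc7a7 ranged from -0.84 to 0.11, Slc7a8 from -0.52 to 0.03, Slc7a9 from -0.31 to 0.09, Slc3a1 from -0.0 to 0.05, Slc1a4 from -0.09 to 0.21 and Slc6a19 from -0.61 to 0.08. For W1 against W0, Slc7a12 ranged from -0.28 to 0.77, Slc7a7 from -0.30 to 0.30, Slc7a8 from -0.02 to 0.47 and Slc6a19 from -0.12 to 0.39. For W5 against W0, Slc7a8 ranged from -0.16 to 0.42 and Slc7a9 from -0.32 to 0.09. For W5 against W1, Slc7a8 ranged from -0.37 to 0.18, Slc3a2 from -0.22 to 0.06 and Slc6a19 from -0.07 to 0.62. The SE of a group difference was 0.147 to 0.475 for the transporter genes, so the same change can pass for one gene and miss for another.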
